A study of Mus musculus with 2 samples.

Results

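Epidermal keratinocytes made up 191 of the 9967 cells kept from 2 single-cell RNA-seq libraries of neonatal mouse digits. They were selected on their own transcripts. A cell was counted when at least 4 of 10 epithelial genes (*Krt5*, *Krt14*, *Krt15*, *Krt1*, *Krt10*, *Perp*, *Dsp*, *Sfn*, *Rab25* and *Serpinb5*) had a UMI, which stands for 1 captured mRNA molecule. It could hold UMIs of at most 2 of 6 nail and hair matrix genes (*Krt35*, *Krt25*, *Krt73*, *Prr9*, *S100a3* and *Mt4*) and none of *Pdgfra*, a receptor gene of fibroblasts. The rule took 78 of 3252 cells of the BSA library, or 2.40% (exact binomial 95% interval 1.90 to 2.98), and 113 of 6715 cells of the FGF8 library, or 1.68% (1.39 to 2.02). Levels of these genes, and of the genes that lead clusters of these cells, are therefore a description.

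Both libraries came from ICR mice whose digits 2 and 4 of the hindlimb had been amputated through the middle phalanx (P2) on postnatal day 3. At postnatal day 7 an agarose bead soaked in FGF8 (500 ng/µl) or in 0.1% BSA was placed in each stump, and tissue distal to the bone was taken 24 h later, at postnatal day 8. Each library pooled 20 digits from 5 male and female mice, and the outer epithelium was taken off before dissociation, so the shares above are of captured cells and not of the digit. With 1 library per treatment there was no test between treatments, and all intervals cover counting error only. The effect of the bead cannot be told apart from that of the animals pooled, of the dissection or of the library in any comparison given here, and a lower level cannot be told apart from fewer cells of 1 layer where UMIs were summed.

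The epidermis is a stratified epithelium. Basal keratinocytes sit on the basement membrane, express *Krt5* and *Krt14* and divide. Cells that leave this layer switch to *Krt1* and *Krt10* in the spinous layer and then make filaggrin, loricrin and other proteins of the cornified envelope in the granular layer. At a wound edge, keratinocytes turn on stress keratins such as *Krt6a*, *Krt16* and *Krt17* and secrete proteases as they migrate. Keratinocytes receive FGF signals mainly through the epithelial splice form of FGFR2, whereas FGF8 acts chiefly on the mesenchymal splice forms of its receptors, and counts per gene do not separate these forms.

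The keratinocytes of the 2 libraries differed in depth. The median was 5879 UMIs and 1623 detected genes per cell in the BSA library and 12784 UMIs and 3653 genes in the FGF8 library, with ranges of 552 to 86259 and 647 to 58492 UMIs. In all, 1031566 and 1842371 UMIs were summed. By *Xist* or Y-linked UMIs, 22 BSA keratinocytes were called female and 10 male, against 16 and 63 in the FGF8 library. None of the 6 barcodes that the libraries shared was a keratinocyte.

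Levels of the rule's own keratins describe the selection and are no check of the label. *Krt14*, a basal keratin, was at 2017 CPM (UMIs of the gene per 1000000 summed UMIs) in BSA and 1945 CPM in FGF8 keratinocytes, and at 17 and 9.14 CPM in cells with a *Pdgfra* UMI. With every cell reduced to 2000 UMIs, 46.7% and 49.0% of the keratinocytes still held *Krt14*, against 0.78% and 0.722% of *Pdgfra* cells. *Krt10*, the suprabasal keratin, was less selective: 48.6% and 50.8% of *Pdgfra* cells had at least 1 UMI of it before thinning, close to the 62.8% and 62.8% of keratinocytes. After thinning, these shares were 8.25% and 8.50% of *Pdgfra* cells and 35.0% and 29.8% of keratinocytes. A single *Krt10* UMI thus stood near its background.

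Genes outside the rule that were high in the selected cells were mostly known from stratified epithelia, which is again a description. Of the 15 genes with the highest ratio over all other cells, the first 5 belonged to the rule, and the other 10 were 35.0 (*Ckmt1*) to 78.5 times (*Calm4*) as high as elsewhere. *Calm4*, a calmodulin-like gene of differentiating keratinocytes, was at 5352 CPM in the BSA library and 2310.1 CPM in the FGF8 library. *Ly6d*, a surface protein of stratified epithelia, stood at 2564 against 1896 CPM in the same order. *Fgfbp1*, whose product releases FGFs from the matrix, stood at 129.9 against 155 CPM, and *Trim29*, a keratinocyte ubiquitin ligase, at 352 against 210.1 CPM. *Stfa3*, *Urah*, *Lypd3*, *Sbsn* and *Dmkn* completed the 10. The last 3 encode secreted or membrane proteins of the upper epidermis.

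Part of the selected cells went against the label. Summed *Krt1*, *Krt10*, *Krt5* and *Krt14* UMIs came to a median of 36.2 per 10000 UMIs in the BSA library (range 0 to 1026) and 20.1 in the FGF8 library (0.690 to 1164), so that keratin was abundant in a minority of cells and scarce in others. At the threshold of 4 epithelial genes, the 23 BSA and 20 FGF8 cells just inside had medians of 8.39 and 3.94 keratin UMIs per 10000, and the 40 and 107 cells just outside, with 3 genes, had 5.92 and 2.47. Cells with 2 matrix genes (10 and 32, inside) had 8.66 and 15.7, and cells with 3 (22 and 44, outside) had 0.813 and 2.39. A further 15 and 68 cells met both gene counts but held *Pdgfra*.

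Markers of other cell types were present in the selected cells. Of 8 fibroblast markers, 7 were detected in each library, with a summed level of 0 to 31932 CPM per BSA cell and 0 to 36240.4 CPM per FGF8 cell and with *Pdgfra* at 0 by the rule. All 8 macrophage markers were detected, with UMIs in 13 of 78 and 37 of 113 cells and per-cell levels of 0 to 16239.7 and 0 to 28353 CPM. All 6 chondrocyte markers were detected, with UMIs in 30 and 36 cells, at 0 to 1812 and 0 to 47171 CPM per cell. Erythroid genes (5 of 6 detected, *Slc4a1* at 0) reached 944434 and 949629 CPM, almost the whole transcript content of single cells. Merkel cell markers had UMIs in 1 BSA and 2 FGF8 cells (5 and 4 of 6 genes at 0), melanocyte markers in 7 and 26 (5 and 3 of 6 at 0) and osteoblast markers in 0 and 8 (5 and 1 of 5 at 0). Of the 6 Langerhans and dendritic cell markers, 2 and 1 were at 0, *Cd207* in both libraries. Mural cell markers summed to 1465 and 359 CPM, Schwann cell markers to 91.1 and 979 CPM, neutrophil markers to 0.969 and 55.9 CPM, and T cell, mast cell and endothelial markers each to under 100 CPM. Markers of other skin epithelia summed to 3165 and 2546 CPM for hair follicle sheath and 284 and 59.2 CPM for sweat gland. The part of these transcripts in the results below was not tested. The results are repeated without 2 clusters that carried most of the macrophage, chondrocyte and Schwann cell UMIs.

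Clustering of the 191 keratinocytes alone gave 4 clusters, described here by their leading genes. Cluster 2 (7 BSA and 13 FGF8 cells) was led by *Lor*, *Flg*, *Cnfn*, *Spink5*, *Krt10* and *Krt1* and was granular-like and spinous-like by the marker lists. Cluster 0 (43 and 22 cells) was led by hemoglobin genes with *Krt14* and *Krt5*, and cluster 1 (23 and 37 cells) by *Sparc*, *Cald1* and other genes of mesenchymal cells. Cluster 3 (5 and 41 cells) was led by *Lef1*, *Ccnd2*, *Sox5* and *Myb*, with *Uhrf1* and *Top2a* also among its leading genes. Clusters held unequal numbers from each library, and a cluster that is mostly 1 library may be that library and not a cell type. In the plot of basal against suprabasal keratins the cells of cluster 2 stood above the line of equal counts, and 7 of the 46 cells of cluster 3 lay above it.

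**Figure D1:**
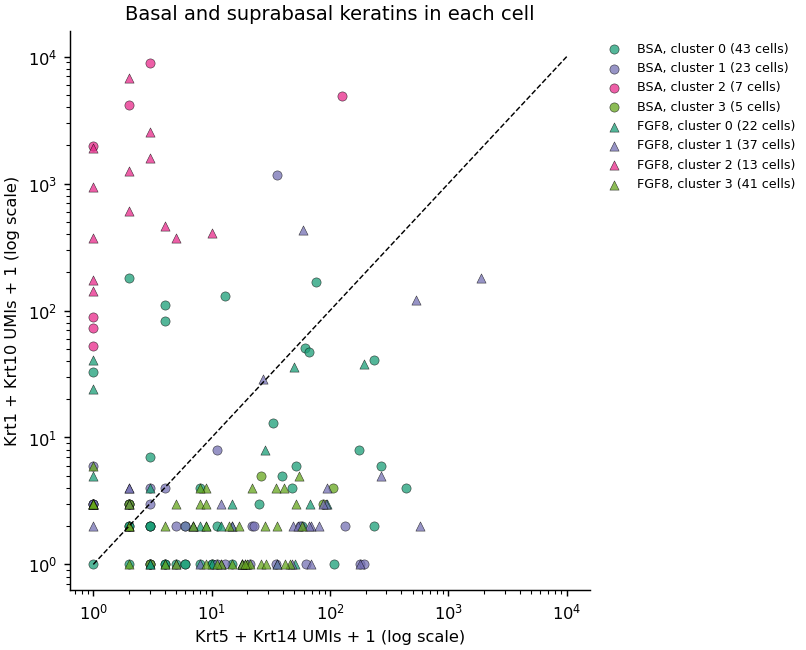
UMIs of *Krt1* plus *Krt10* (vertical axis) against *Krt5* plus *Krt14* (horizontal axis), both with 1 added and on log scales, for each of the 191 keratinocytes. Circles are 78 BSA cells and triangles 113 FGF8 cells, colours are the 4 clusters, and the dashed line marks equal counts; the 20 cells of cluster 2 all lie above the line.

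Finer clusters set the *Lor*-led cells and part of the foreign transcripts apart. At a resolution of 1, 9 clusters were found. The *Lor*-led cluster was unchanged in size (7 and 13 cells). A *Krt17*-led cluster with *Krt14*, *Epcam* and *Krt5* (12 and 14 cells) was not given a layer, and *Krt17* also marks the hair follicle sheath. Few of its cells (1 BSA and 2 FGF8) held more *Krt1* and *Krt10* than *Krt5* and *Krt14* UMIs. Its BSA cells also held differentiation genes, with *Cst6* at 20838 CPM (7 of 12 cells) and *Crct1* at 3712 CPM (3 of 12). A *Lef1*-led cluster with *Msx2*, *Ccnd2* and *Myb* (4 and 29 cells), an *Slc1a3*-led cluster with *Slit3* and *Slpi* (3 and 7 cells) and an *Mgll*-led cluster with the lipid genes *Cidea*, *Elovl3*, *Scd3* and *Soat1* (2 and 5 cells) were left unnamed. *Cidea*, *Elovl3*, *Scd3* and *Elovl6* make or store lipids and are known from sebaceous glands and other fat-making cells, and the *Scd* genes are close copies whose reads may be split between them. A *Cdk8*-led cluster (21 and 12 cells) was shallow, and an *Hba-a1*-led cluster (19 and 5 cells) carried hemoglobin as 20.1% of its BSA UMIs and 71.3% of its FGF8 UMIs. Nearly all of it came from 1 BSA cell (94.4% hemoglobin) and from FGF8 cells with 94.8%, 84.3% and 58.6%. *Krt14* (7334 against 1674 CPM in the other keratinocytes) and *Krt5* (3142 against 986 CPM) also led this cluster, with a median of 8 epithelial genes. In it, 8 of 19 BSA and 2 of 5 FGF8 cells held more *Krt1* and *Krt10* than *Krt5* and *Krt14* UMIs. The remaining 2 clusters were led by genes of other cell types: *Col11a1*, *Pmp22* and *Sparc* (9 and 16 cells), and *Lyz2*, *Tyrobp* and *Ctss* (1 and 12 cells). These 38 cells (10 BSA, 28 FGF8) held most of the macrophage, chondrocyte and Schwann cell marker UMIs, and below, "the 153 keratinocytes" are the 68 BSA and 85 FGF8 cells without them. The 153 are not free of other types. They keep the *Lef1*-led and *Mgll*-led clusters, fibroblast markers at 524 and 1111 CPM, and erythroid genes at 25227 and 33598 CPM. The 38 in turn include cells with 9 (BSA) and 10 (FGF8) epithelial genes.

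**Figure D2:**
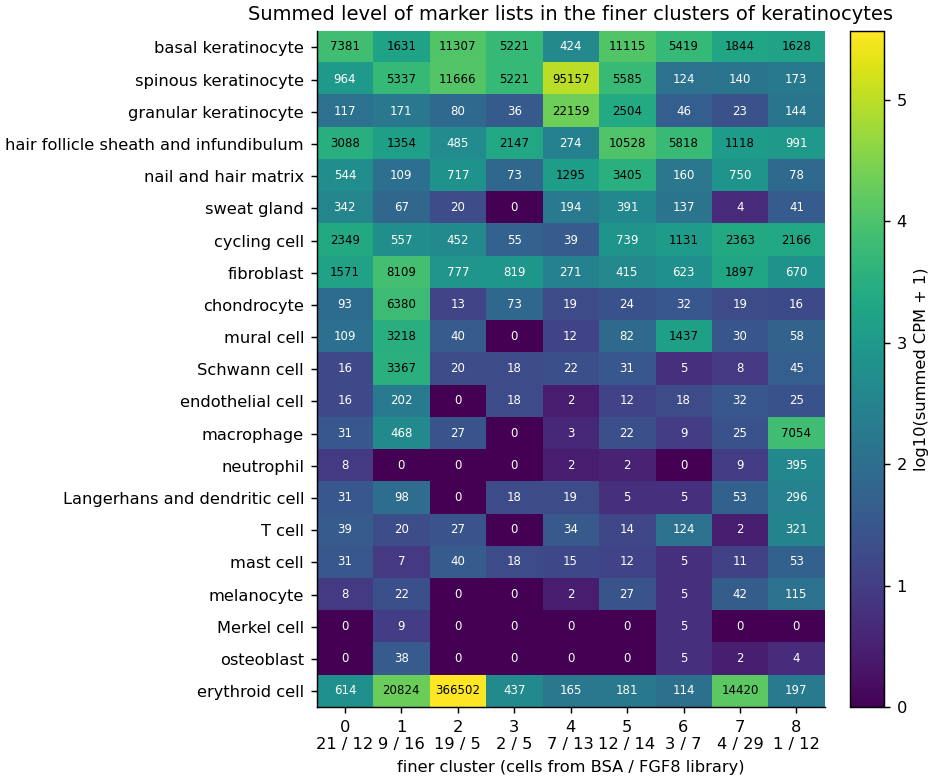
Summed CPM of 21 marker lists (rows) in the 9 finer clusters (columns, with their numbers of BSA and FGF8 cells); colour is log10 of the summed CPM plus 1 and the printed number is the summed CPM. Granular and spinous markers peak in cluster 4 (led by *Lor*), macrophage markers in cluster 8, chondrocyte and fibroblast markers in cluster 1 and erythroid genes in cluster 2.

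UMIs were concentrated in few cells. The 7 BSA cells of the *Lor*-led cluster had a median of 74108 UMIs and supplied 319890 of the 1031566 BSA UMIs, whereas the 13 FGF8 cells had a median of 7016 UMIs and supplied 267045 of 1842371. These 7 BSA cells held 4656 of the 4704 BSA UMIs of *Flg* and 4700 of the 4710 of *Lor*. One of them, not the deepest, held 77780 UMIs, 7.54% of the BSA total, with 4162 UMIs of *Flg*, 4402 of *Lor* and 1989 of *Krt10* but none of *Krt1*, *Krt5* or *Krt14*. Ratios are given without this cell, called the top *Flg* cell, where it moves them by over 1.5 times.

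Across the keratinocytes, the FGF8 library was compared with the BSA library to see which epidermal transcripts differed 24 h after the bead. Of 7031 genes with at least 50 UMIs, 652 (9.27%) had a log2 ratio of CPM, FGF8 over BSA, above 1 and 328 (4.67%) below -1, with a median of 0.20. In the 153 keratinocytes, 467 of 5456 genes (8.56%) were above 1 and 247 (4.53%) below -1. With equal weight for every cell, the median of all genes with at least 10 UMIs moved from 0.23 to 0.38. All values are given on the first scale unless stated, and genes of a ratio near 0.2 stood with the bulk of genes.

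The 12 genes named as highest in the FGF8 library fell into 4 sets. In the largest set were *Snorc*, *Cnmd*, *Col2a1*, *Col9a1*, *Col9a3* and *Hapln1*, which encode cartilage matrix proteins, and *Dlk1*, a Notch-family ligand of mesenchymal progenitors. *Col2a1*, the main cartilage collagen, had 26 UMIs in 22 BSA cells and 2730 UMIs in 22 FGF8 cells, of which 1 FGF8 cell held 55.4% (log2 ratio 5.88). Of the UMIs of these 7 genes, 96.9% (*Col9a1*) to 99.0% (*Hapln1*) lay in the *Col11a1*-led cluster. In the 153 keratinocytes the ratio of *Col2a1* was -1.40 and that of *Col9a3* -0.89, opposite in sign, and *Snorc*, *Cnmd* and *Col9a1* were at or below 3.17 CPM in both libraries. *S100a9*, an alarmin abundant in myeloid cells, formed a set of its own, with 94% of its UMIs in the *Lyz2*-led cluster and a ratio of 4.71 that came to 0.20 in the 153 keratinocytes.

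*Spp1*, *Prg4* and *Mmp3* had UMIs in many FGF8 keratinocytes, but their UMIs were not evenly spread. A single FGF8 cell held 33.4% of the FGF8 UMIs of *Spp1*, 34.9% of *Prg4* and 23.5% of *Mmp3*. The *Col11a1*-led cluster held 53.7%, 51.2% and 28.8% of their UMIs in the same order. *Spp1*, which encodes the secreted matrix protein osteopontin, had 3 UMIs in 3 of 78 BSA cells and 371 UMIs in 68 of 113 FGF8 cells (log2 ratio 6.11, 4.56 to 8.40; 3.67 against 72.1 CPM in the 153 keratinocytes). *Prg4*, the joint lubricin gene, had 1 UMI in 1 BSA cell and 83 UMIs in 40 FGF8 cells (log2 ratio 5.54, 3.02 to 10.86; 1.22 against 28.5 CPM in the 153 keratinocytes). *Mmp3*, which encodes the protease stromelysin, had 1 UMI in 1 BSA cell and 51 UMIs in 35 FGF8 cells (log2 ratio 4.84, 2.29 to 10.17; 1.22 against 24.5 CPM in the 153 keratinocytes). All 3 were also higher in the FGF8 library outside the keratinocytes, with *Spp1* at 453 against 3080.5 CPM, *Prg4* at 181 against 1429.7 CPM and *Mmp3* at 23.7 against 497 CPM over all other cells. With cells thinned to 2000 UMIs, *Spp1* was found in 22.1% of FGF8 keratinocytes (median 12784 UMIs before thinning) and 29.0% of FGF8 *Pdgfra* cells (19121 UMIs), *Prg4* in 17.3% and 23.6%, and *Mmp3* in 6.73% and 19.7%. The keratinocyte shares were below those of the *Pdgfra* cells of the same library for all 3 genes, and no value here separates transcripts of the keratinocytes from free RNA.

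*Adamts9*, an extracellular protease of the matrix proteoglycan versican, was the remaining gene. It had 3 UMIs in 2 of 78 BSA cells and 121 UMIs in 37 of 113 FGF8 cells, with no cell holding more than 13.2% of the FGF8 UMIs (log2 ratio 4.50, 2.92 to 6.79). It stood at 2.44 against 63.3 CPM in the 153 keratinocytes. The gene lies on chromosome 6 at 92749680 to 92920520 (GRCm39, GENCODE annotation). Over all other cells *Adamts9* stood at 47.8 CPM in the BSA and 43.0 CPM in the FGF8 library (log2 ratio -0.15) there. In nail and hair matrix keratinocytes, the nearest population, it was at 3.13 CPM in BSA and 12.5 CPM in FGF8 cells. Whether the keratinocytes differed from the other cells in this ratio was not tested. Among the FGF8 cells it was found in 17 of 29 cells of the *Lef1*-led cluster, 10 of 16 of the *Col11a1*-led cluster, 5 of 12 of the *Lyz2*-led, 2 of 7 of the *Slc1a3*-led, 2 of 13 of the *Lor*-led and 1 of 14 of the *Krt17*-led cluster, and in none of the other 3 clusters. Its summed level was 115 CPM in the *Lef1*-led and 113 CPM in the *Slc1a3*-led FGF8 cells. The BSA library had 4 cells in the *Lef1*-led cluster, 0 of them with *Adamts9*, too few to compare the libraries within it.

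**Figure D3:**
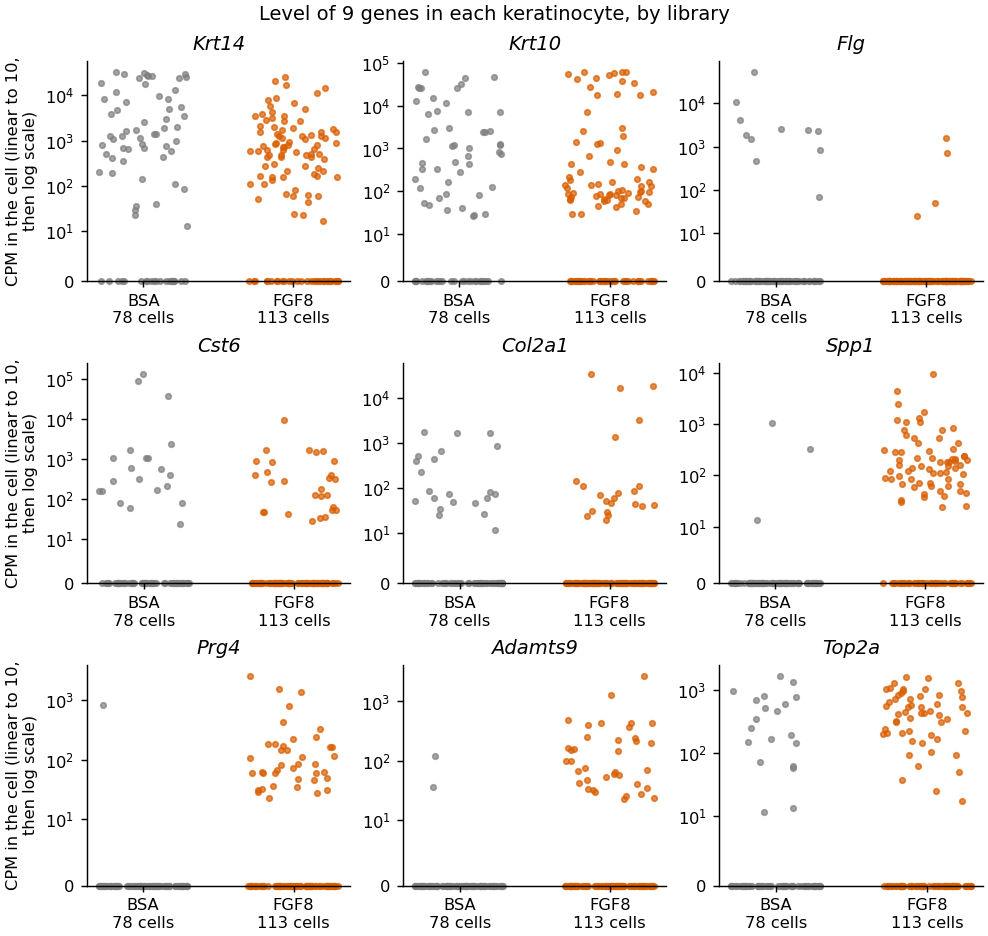
CPM of 9 genes in each of the 78 BSA (grey) and 113 FGF8 (orange) keratinocytes, on an axis that is linear to 10 and then logarithmic; points are spread sideways only for visibility. *Spp1*, *Prg4* and *Adamts9* have 3, 1 and 2 BSA cells above 0 against 68, 40 and 37 FGF8 cells, while *Flg* has 11 against 4.

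The 12 genes named as lowest in the FGF8 library rested on 4 to 21 BSA cells each. For 5 of them most UMIs lay in the *Lor*-led cluster, for 6 in the *Krt17*-led cluster and for 1 in the *Col11a1*-led cluster. One BSA cell, not the same for all, held 34.5 to 88.5% of the BSA UMIs of each gene. *Flg*, which encodes the keratin-aggregating filaggrin (chromosome 3, 93180830 to 93200993), had 4704 UMIs in 11 BSA cells and 12 UMIs in 4 FGF8 cells (log2 ratio -9.45, -10.40 to -8.65). The top *Flg* cell held 88.5% of the BSA UMIs, and without it the ratio was -6.45. *Crct1*, a cornified-envelope gene of the same chromosome 3 cluster, had 1643 UMIs in 10 BSA cells and 7 in 1 FGF8 cell (-8.71, and -7.50 without that cell). *Ivl*, the envelope precursor involucrin, had 110 UMIs in 6 and 2 in 2 cells (log2 ratio -6.62, -9.68 to -4.73, and -4.27, -7.41 to -2.23, without that cell). *Cst6*, which encodes a cysteine protease inhibitor of the cornifying epidermis, had 3887 UMIs in 21 BSA cells and 216 in 28 FGF8 cells (log2 ratio -5.01, -5.21 to -4.81), but 3643 of its BSA UMIs came from the 12 BSA cells of the *Krt17*-led cluster and 1 cell held 58.5%. In the *Lor*-led cluster *Cst6* stood at 603 CPM in BSA and 652 CPM in FGF8 cells, with UMIs in 5 of 7 and 12 of 13 cells.

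The other named genes were mostly proteases and epithelial genes. *Klk10* and *Klk11*, kallikrein proteases, had ratios of -4.40 and -3.52; 1 BSA cell held 83.8% and 34.5% of their BSA UMIs. *Tmprss11f*, a membrane serine protease, was at -5.59, *Krt23*, an epithelial keratin, at -3.54 and *Gsdma*, a skin gasdermin, at -3.30. *Eps8l1* was at -4.22 (and -2.21 without the top *Flg* cell) and *Atp6v1c2* at -3.33. *Mustn1*, known from muscle and skeletal tissue, was at -3.30 with 97.8% of its UMIs in the *Col11a1*-led cluster.

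Gene lists were read against the share among all 11973 genes with at least 10 UMIs, of which 1862 (15.6%) were above 1 and 847 (7.07%) below -1, with a median log2 ratio of 0.23. In the 153 keratinocytes these shares were 15.3% and 6.74% of 10345 genes. Without the cell with the most *Flg* UMIs they were 14% and 5.96% of 11904, and over all other cells 4.84% and 4.64% of 21959.

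**Figure D4:**
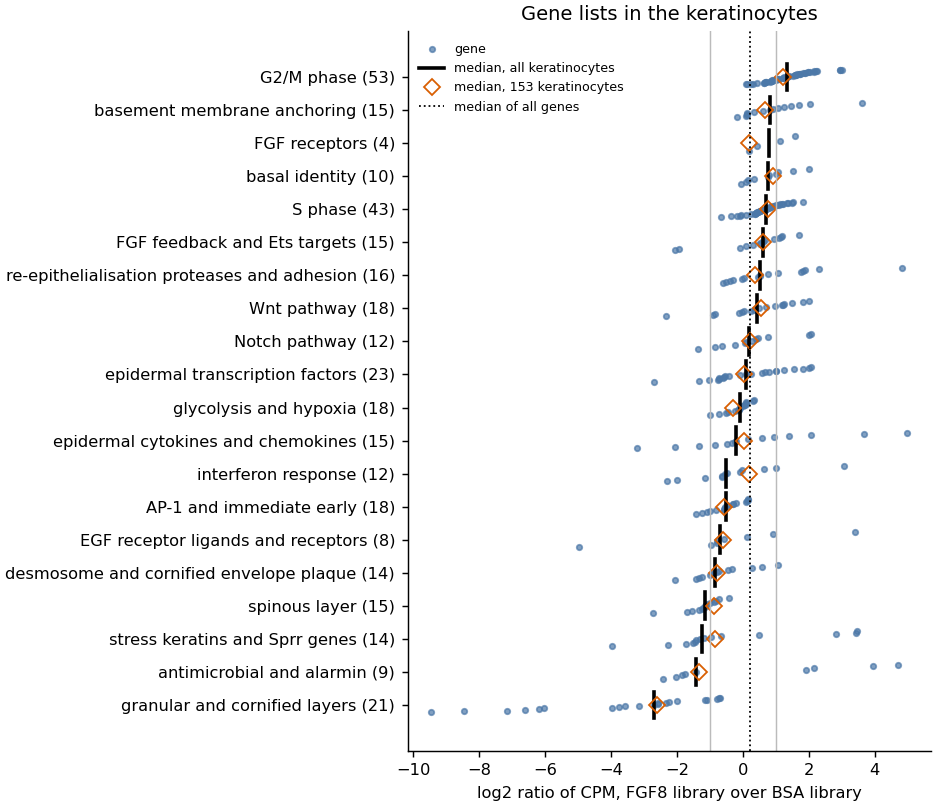
Log2 ratio of CPM, FGF8 over BSA, of each gene with at least 10 UMIs (blue points) in 20 gene lists, with the number of genes in brackets. Black bars are list medians in all keratinocytes, open orange diamonds those in the 153 keratinocytes, the dotted line is the median of all genes and grey lines mark -1 and 1; G2/M genes lie farthest to the right (median 1.34) and granular and cornified genes farthest to the left (-2.71).

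Spinous genes were lower in the summed FGF8 keratinocytes, but higher in the cells called female, in the cells without a UMI of 7 genes of other cell types and with stricter limits on detected genes. Of 15 genes (*Krt1*, *Krt10* and *Mt4* among them from the rule), 10 were below -1 and none above 1, with a median of -1.14. Without the top *Flg* cell, 5 of 15 were below -1 (median -0.93). In the 153 keratinocytes, 4 of 15 were below -1 (median -0.88). *Krt10* was at 14016 CPM in the BSA library and 5975 CPM in the FGF8 library (log2 ratio -1.23, -1.27 to -1.19; 0.19 with equal weight per cell) and *Krt1* at 7522 against 4114 CPM (-0.87). *Krtdap*, a secreted differentiation peptide, was at 3159 against 1426 CPM (-1.15), and *Sbsn*, a secreted suprabasal protein, at 2071 against 639 CPM (-1.70; -1.11 without the top *Flg* cell). Within the *Lor*-led cluster the order was not kept, and *Krt10* had a median per cell of 27915 CPM in BSA (range 25572 to 62973) and 43599 CPM in FGF8 cells (17646 to 63086). *Krt1* medians were 20578 and 22129 CPM, *Krtdap* 8498 and 8644 CPM and *Calm4* 14780.1 and 16216 CPM, with overlapping ranges. *Ly6d* was higher per FGF8 cell there, at a median of 9139.6 against 3063 CPM. The list median was -0.11 with equal weight per cell, turned to 1.20 in female-called cells against -2.57 in male-called ones, and turned to 1.41 in the 29 BSA and 17 FGF8 cells without a UMI of these 7 other-type genes. With stricter limits on detected genes and mitochondrial UMIs it was 0.23. The *Lor*-led cluster held 0 BSA and 3 FGF8 cells called female, and 2 and 2 called male.

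Granular and cornified genes were lower in the FGF8 library by more, but higher in the cells called female and in the cells without a UMI of those 7 genes. Of 21 genes, 18 were below -1 and none above 1 (median -2.71); without the top *Flg* cell 14 of 19 were below -1 (median -1.53), and with equal weight per cell the median was -1.39. *Lor*, the loricrin gene, was at 4566 CPM in the BSA library and 62.4 CPM in the FGF8 library (log2 ratio -6.19, -6.47 to -5.93; -2.37 without that cell). *Asprv1*, a filaggrin-processing protease, was at 1599 against 396 CPM (-2.01; -1.42) and *Casp14*, a caspase of cornification, at 109.5 against 21.7 CPM (-2.33; -1.65). *Cnfn*, an envelope gene, went from -2.59 to -0.13, and *Tgm1*, the envelope transglutaminase, from -0.68 to 0.37. In female-called cells the list median was 0.64, opposite in sign to the -4.93 of male-called cells, and it was 1.39 in the cells without a UMI of those 7 other-type genes.

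Within the *Lor*-led cluster, *Flg* and *Lor* still differed per cell. *Flg* was found in 7 of 7 BSA cells, from 67.5 to 53509.9 CPM (median 2523), and in 4 of 13 FGF8 cells, from 0 to 1585 CPM (median 0). *Lor* was found in 7 of 7 and 10 of 13 cells, with medians of 5418 and 399.5 CPM. *Hopx*, a differentiation regulator, was found in 5 of 7 and 5 of 13 cells. The ranges overlapped for all 3 genes. *Asprv1* ran the other way, with medians of 821 in BSA and 3305 CPM in FGF8 cells, and *Cnfn* had medians of 1204 and 1469 CPM. *Lor* and *Flg* led this cluster, so these levels describe it. The BSA cells were deeper (median 74108 against 7016 UMIs), and the part of depth in the shares of cells with a UMI was not tested.

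Genes of cell junctions were mostly lower, but not in the cells called female (median 0.67). Of 14 desmosome and envelope plaque genes, 4 were below -1 and 1 above 1 (median -0.84). *Ppl*, the plaque protein periplakin, was at 152 against 36.4 CPM (-2.07; -1.22 without the top *Flg* cell), *Pkp1*, plakophilin 1 of the suprabasal desmosome, at 267 against 112 CPM (-1.25), and *Dsc1*, a desmosomal cadherin of the upper layers, at 156 against 61.9 CPM (-1.33). *Dsg2* and *Dsc3*, desmosomal cadherins of the lower layers, had ratios of 1.06 and 0.28. The suprabasal *Dsc1* was thus lower in the FGF8 library, *Dsg2* higher and *Dsc3* near the median of all genes.

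Basal genes were higher or level, but not in the cells with more *Krt1* and *Krt10* than *Krt5* and *Krt14* UMIs (median -0.67, 6 genes). Of 10 basal identity genes, 3 were above 1 and none below -1 (median 0.76). *Krt5* was at 1059 CPM in the BSA library and 1121 CPM in the FGF8 library (log2 ratio 0.08, -0.02 to 0.19) and *Krt14* at 2017 against 1945 CPM (log2 ratio -0.05, -0.13 to 0.03), within counting error of equal. *Trp63*, the master regulator of stratified epithelia, was at 135 against 231 CPM (log2 ratio 0.78, 0.50 to 1.07), with UMIs in 22 of 78 and 65 of 113 cells. *Ccnd2*, a G1 cyclin, was at 141 against 405 CPM (log2 ratio 1.53, 1.27 to 1.80), *Jag2*, a basal Notch ligand, at 9.69 against 39.1 CPM (2.01), and *Cdh3*, P-cadherin, at 39.7 against 83.0 CPM (1.06). With equal weight per cell the list median was 0.05 and *Krt14* stood at -1.69, so the level of the basal keratins depended on the weight of a few deep cells: 1 FGF8 cell held 35.3% of the *Krt14* UMIs.

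Genes that anchor basal cells to the basement membrane were also higher on summed counts: 6 of 15 were above 1 and none below -1 (median 0.81). In the 153 keratinocytes 4 of 15 were above 1 (median 0.68). The median was 0.25 in the cells called female, and 0.35 below and 0.30 above the suprabasal boundary, near the 0.23 of all genes. It was 0.54 in the cells called male and 0.85 with equal weight per cell. *Col17a1*, a collagen of the hemidesmosome, was at 25.2 against 69.5 CPM (log2 ratio 1.46, 0.85 to 2.13), and *Itga6*, its integrin partner, at 78.5 against 137 CPM (log2 ratio 0.81, 0.44 to 1.19). *Fras1*, a basement membrane protein, was at 1.70, and at 0.99 in the 153 keratinocytes. *Itgb1*, the integrin beta 1 chain, had a ratio of -0.19.

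In the *Krt17*-led cluster, the basal keratins were higher in FGF8 cells on summed counts. *Krt14* was at 1636 CPM over 12 BSA and 9920.1 CPM over 14 FGF8 cells, with medians per cell of 154 and 2904 CPM. *Krt5* medians were 1003 and 1130.5 CPM and *Krt17* medians 6087 and 1479.8 CPM. The per-cell ranges of all 3 began at 0 in both libraries and overlapped. *Krt1* was found in none of the 12 BSA and in 7 of the 14 FGF8 cells, at a median of 27.5 CPM.

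Stress keratins and small proline-rich genes of wounded epidermis were mostly lower, but not in the cells called female (median 0.39). Of 14 genes, 8 were below -1 and 3 above 1 (median -1.25). Over all other cells the direction was opposite, with 10 of 15 genes above 1 and 1 below -1 (median 2.24). *Krt17* was at 2189.9 CPM in the BSA library and 1371 CPM in the FGF8 library (log2 ratio -0.68, -0.76 to -0.59), *Krt16* at 185 against 82.0 CPM (-1.18; -0.36 in the 153 keratinocytes) and *Krt6a* at 40.7 against 20.6 CPM (-0.98). *Sprr1a*, a cross-linked envelope protein, was at 2202 against 454 CPM (-2.28), but within the *Lor*-led cluster its medians per cell were 927 in BSA and 1998 CPM in FGF8 cells. *Sprr2f* had no UMI in the BSA and 58 UMIs in 5 FGF8 cells. *Krt6a* and *Krt6b*, the *Sprr2* genes and the *Stfa* and *Cstdc* genes are families of near-identical copies, so the reads of 1 copy may have been counted for another or dropped.

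Antimicrobial genes were on both sides, with 4 of 9 above 1 and 5 below -1 (median -1.42), but in the 153 keratinocytes 1 of 8 was above 1 and 5 below -1 (median -1.32). The direction turned with the weighting, to 0.50 with equal weight per cell and 1.32 after thinning to 2000 UMIs. *S100a8*, the partner of *S100a9*, was at 3.93 in all keratinocytes and 0.81 in the 153. *Slpi*, a secreted protease inhibitor, was at 267 against 78.7 CPM (-1.76; -1.63 in the 153), and *Defb1*, a beta-defensin, at -1.84, or -0.19 without the top *Flg* cell. *Il1rn*, the interleukin-1 receptor antagonist, went from -2.02 to -0.55 without that cell.

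Of 15 cytokine and chemokine genes with enough UMIs, 4 were above 1 and 3 below -1 (median -0.22, but 1.39 with equal weight per cell). *Cxcl14*, a chemokine made by resting epidermis, was at 264 against 505 CPM (log2 ratio 0.94, 0.74 to 1.14) with UMIs in 37 and 62 cells, but it was also at 148 against 382 CPM over all other cells. *Cxcl1*, a neutrophil chemokine of wounds, had 15 UMIs in 9 BSA and 112 UMIs in 35 FGF8 cells (log2 ratio 2.06, 1.28 to 2.95; 2.67 in the 153). *Il1b*, a leading gene of the *Lyz2*-led cluster, had 2 UMIs in 1 BSA and 112 in 10 FGF8 cells (log2 ratio 4.97, 3.08 to 8.03), and stood at 2.44 against 2.38 CPM in the 153.

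Of 4 FGF receptor genes with enough UMIs, 2 were above 1 and none below -1 (median 0.78). In the 153 keratinocytes 1 of 3 was above 1 (median 0.18), and the median turned to -0.23 in the cells called female and -0.27 in the cells with more *Krt1* and *Krt10* than *Krt5* and *Krt14* UMIs. *Fgfr2*, the main receptor gene of keratinocytes, was at 89.2 CPM in the BSA library and 196 CPM in the FGF8 library (log2 ratio 1.14, 0.80 to 1.48), with UMIs in 33 of 78 and 72 of 113 cells. Over all other cells it was at 113 and 98.9 CPM. *Fgfr1* was at 37.8 against 51.0 CPM (log2 ratio 0.43, -0.12 to 1.01) and *Fgfr3* at 28.1 against 32.0 CPM (log2 ratio 0.19, -0.48 to 0.88), both within counting error of equal.

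Of 15 FGF feedback and Ets target genes, which FGF signalling induces, 4 were above 1 and 2 below -1, and in the 153 keratinocytes 1 of 12 was above 1 and 1 below -1 (medians 0.61 and 0.61, and 0.24 over all other cells). *Dusp6*, an ERK phosphatase, was at 44.6 against 101 CPM (log2 ratio 1.18, 0.71 to 1.68; 0.77 in the 153). *Spred1* and *Spred2*, inhibitors of the Ras pathway, were at 0.94 (0.45 to 1.46) and 1.16 (0.59 to 1.77), and *Spry1*, a feedback inhibitor, at 0.66 (0.06 to 1.29). *Etv4*, an Ets factor downstream of FGF receptors, had a ratio of 0.51 (-0.12 to 1.19), within counting error of 0. *Dusp5* was below -1 (-1.93) and came to -0.51 without the top *Flg* cell. The list median was -0.0034 in female-called and 0.55 in male-called keratinocytes. The counts above 1 stand beside 15.6% of all genes, and 15.3% in the 153.

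EGF receptor genes were split. *Egfr*, the receptor of basal keratinocytes, was at 132 against 249 CPM (log2 ratio 0.92, 0.64 to 1.20), with UMIs in 22 and 70 cells. Its ligands *Hbegf* and *Areg* were at -0.98 and -0.58, the second turning to 1.43 without the top *Flg* cell, and *Ereg* went from -4.97 to 0.05. Of the 8 genes, 1 was above 1 and 1 below -1.

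Immediate early genes, which respond within minutes to growth factors and to handling of tissue, were level or lower on summed counts. Of 18 genes, 3 were below -1 and none above 1 (median -0.52, but 0.41 with equal weight per cell). *Fos* was at 1398 against 651 CPM (log2 ratio -1.10, -1.21 to -0.99), *Egr1* at 462 against 194 CPM (log2 ratio -1.25, -1.45 to -1.05) and *Jun* at 1009 against 693 CPM (-0.54), while *Junb* and *Ier2* were at 0.12 and 0.16. In the *Lor*-led cluster, *Fos* had medians per cell of 2681 and 1264 CPM and *Egr1* 1157 and 399.5 CPM, with overlapping ranges. With equal weight per cell, *Fos* was at 0.32 and *Egr1* at 0.09, opposite in sign to the summed values.

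Of 16 genes for re-epithelialisation, 6 were above 1 and none below -1 (median 0.52), with *Mmp3*, given above, the highest at 4.84. In the 153 keratinocytes 4 of 15 were above 1 and 1 below -1 (median 0.37). The median was -0.35 in the cells called female, 0.45 in those called male and 1.14 with equal weight per cell. *Itgb6*, the wound-edge partner of integrin alpha v, was at 7.76 against 26.1 CPM (log2 ratio 1.75, 0.66 to 3.04; 2.26 in the 153), with UMIs in 4 and 29 cells. *Fn1*, fibronectin, was at 1.88 and came to 0.39 in the 153, and *Inhba*, the activin A subunit, changed from 2.31 to -2.95. *Plau* and *Mmp14*, proteases of cell migration, had ratios of -0.40 (-1.07 to 0.28) and -0.29 (-0.74 to 0.16).

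Of 23 epidermal factors, 6 were above 1 and 3 below -1 (median 0.10). *Msx2* (log2 ratio 2.05, 1.27 to 2.94), *Lhx2* (log2 ratio 2.00, 1.48 to 2.56), *Dlx3* (log2 ratio 1.81, 1.04 to 2.67) and *Grhl2* (log2 ratio 1.54, 0.84 to 2.31) were higher in the FGF8 library; *Msx2*, *Lhx2* and *Dlx3* are known from hair and nail epithelium. *Klf4*, a factor of barrier formation, was at 641 against 313 CPM (-1.03; -0.37 without the top *Flg* cell), and *Hopx* at -1.33 (-0.43). *Ehf*, an epithelial Ets factor, was at -2.69, with 1 BSA cell holding 57.8% of the UMIs.

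Wnt pathway genes of hair and nail epithelium were higher, but not in the cells with more *Krt1* and *Krt10* than *Krt5* and *Krt14* UMIs (median -0.24): 6 of 18 were above 1 and 1 below -1 (median 0.42). *Lef1*, a nuclear effector of Wnt signals, was at 35.9 against 126 CPM (log2 ratio 1.82, 1.31 to 2.36) and *Lgr5*, an epithelial stem cell receptor for R-spondins, at 21.3 against 84.7 CPM (log2 ratio 1.99, 1.34 to 2.70). *Wnt5a*, a Wnt ligand, was at 22.3 against 63.0 CPM and *Lgr4* at 1.20. *Lef1* led the cluster of 4 BSA and 29 FGF8 cells; within it, *Lef1* had medians per cell of 1231 CPM in BSA and 212 CPM in FGF8 cells, *Trp63* 286 and 331 CPM and *Ccnd2* 531 and 1099 CPM, with overlapping ranges. The higher summed *Lef1* and *Ccnd2* went with the larger number of FGF8 cells in this cluster.

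Of 12 Notch genes, 2 were above 1 and 1 below -1 (median 0.17); *Notch1* was at 0.08 (-0.36 to 0.54). Of 12 interferon response genes, 2 were above 1 and 3 below -1 (median -0.50, 0.02 with equal weight per cell and -0.91 over all other cells). In the 153 keratinocytes 0 of 10 were above 1 and 2 below -1, and the median changed sign to 0.17. *Ifi27l2a* was at -2.32 (-2.82 to -1.83), and at -1.63 in the 153. None of 18 glycolysis and hypoxia genes passed 1 or -1 (median -0.09, and 0.09 with equal weight per cell), and *Gapdh* was at 1038 against 1095 CPM (log2 ratio 0.08, -0.03 to 0.18).

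On summed counts of all keratinocytes, cell cycle genes were higher in the FGF8 library. S phase genes were not higher in the cells called female (median -0.28). Of 53 G2/M genes, 35 were above 1 and none below -1 (median 1.34), and of 43 S phase genes, 11 were above 1 and none below -1 (median 0.70). *Top2a*, the topoisomerase of dividing cells, was at 81.4 against 270.3 CPM (log2 ratio 1.73, 1.39 to 2.08), and *Mki67*, a marker of cycling cells, at 50.4 against 176 CPM (log2 ratio 1.81, 1.38 to 2.26). *Cenpf*, a kinetochore protein, was at 2.17 (1.72 to 2.65) and *Rrm2*, an enzyme of nucleotide synthesis, at 1.18 (0.73 to 1.64). Over all other cells, 22 of 54 G2/M genes were above 1 (median 0.94), the same direction as in the keratinocytes. The G2/M median was 0.54 with equal weight per cell, 0.30 with cells thinned to 2000 UMIs and 0.04 in the cells without a UMI of the 7 other-type genes. With equal weight, 14 of 53 G2/M genes were above 1, beside 28.2% of all 11973 genes (median 0.38). *Top2a* was also a leading gene of cluster 3 (5 BSA and 41 FGF8 cells), at 498 CPM against 94.2 CPM in the other keratinocytes. The part of these cell numbers in the cell cycle ratios was not tested.

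The share of cells with a *Mki67* or *Top2a* UMI was also compared at equal depth. After thinning, 16 of 60 BSA keratinocytes (26.7%, 16.1 to 39.7) and 39 of 104 FGF8 keratinocytes (37.5%, 28.2 to 47.5) held one, and the intervals overlapped; 18 BSA and 9 FGF8 cells were too shallow and were left out. Unthinned shares were 33.3% (26 of 78) and 56.6% (64 of 113), on unequal depths. In expectation over draws, the thinned shares were 22.0% and 36.4%. The order turned in the cells without a UMI of the 7 other-type genes, at 35% (7 of 20) in BSA and 21.4% (3 of 14) in FGF8 cells, and with stricter limits on detected genes the shares were 28.8% in both. In nail and hair matrix keratinocytes, which held 3 or more matrix genes, thinned shares were 20.9% and 28.7%, and in *Pdgfra* cells 10.9% and 24.3%. Whether the difference was larger in keratinocytes was not tested.

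**Figure D5:**
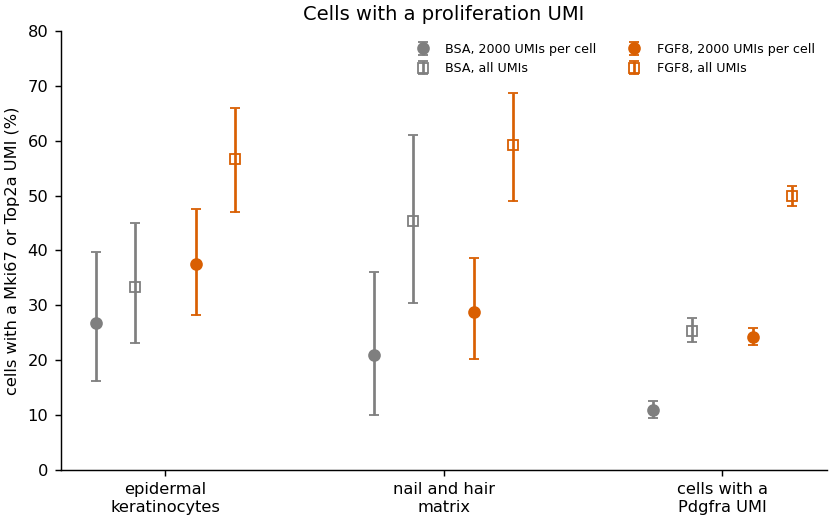
Percentage of cells with a *Mki67* or *Top2a* UMI in keratinocytes, nail and hair matrix keratinocytes and *Pdgfra* cells, for the BSA (grey) and FGF8 (orange) libraries, after thinning to 2000 UMIs (filled circles) and with all UMIs (open squares). Bars are exact binomial 95% intervals; keratinocytes stand at 26.7% and 37.5% after thinning, with overlapping intervals.

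A cell was put in the suprabasal range when its *Krt1* and *Krt10* UMIs exceeded those of *Krt5* and *Krt14*. This held for 23 of 78 BSA keratinocytes (29.5%, 19.7 to 40.9) and 33 of 113 FGF8 keratinocytes (29.2%, 21.0 to 38.5), with 17 cells of each library within 1 log2 unit of the boundary. The intervals overlapped. All 4 genes belong to the selection rule so the share is a description. Without the cells holding a UMI of the 7 other-type genes, the shares were 31.0% (9 of 29, 15.3 to 50.8) in BSA and 58.8% (10 of 17, 32.9 to 81.6) in FGF8 cells.

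Nail and hair matrix keratinocytes (44 BSA and 103 FGF8 cells) were the nearest population, and some genes ran oppositely in them. Both *Krt1* and *Krt10* belong to the selection rule of either population. *Krt1* was at 11.5 against 710.4 CPM there (log2 ratio 5.95) and *Krt10* at 32.4 against 1212 CPM (5.23), where the epidermal keratinocytes had -0.87 and -1.23. The share of matrix cells with a *Krt1* UMI was 22.7% in BSA and 23.3% in FGF8 cells, and the summed level of 8 spinous markers had per-cell medians of 2172 and 1634 CPM and maxima of 12818 and 138049 CPM. Over all other cells *Krt1* and *Krt10* were also higher in the FGF8 library (2.72 and 1.84). *Fos* was at 1.54 in matrix and -1.10 in epidermal keratinocytes. *Ccnd2* (2.20 and 1.53), *Trp63* (0.86 and 0.78), *Egfr* (0.72 and 0.92) and *Sprr1a* (-3.03 and -2.28) had the same sign in both. The difference between the populations was not tested.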

How the data were processed

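The authors deposited raw UMI counts per gene and barcode for 2 libraries (10x 3′ kit), and the submitters' notes name Cell Ranger 9.0.0 and Seurat with the builds GRCm39 and mm10, without saying which step used which. Counts of 33696 genes listed in both libraries were used. Barcodes with 201 to 7499 detected genes and under 15% mitochondrial UMIs were kept, and doublets were not called (1 alternative leaves out the deepest 5% of keratinocytes). The keratinocytes and the gene lists were chosen with earlier results of these data known. CPM are summed UMIs per 1000000 summed UMIs, ratios are FGF8 over BSA, and intervals are exact 95% intervals (binomial, Poisson or conditional) that cover counting error only. A gene with 0 UMIs in 1 library entered list medians at a floor of 3 counts, as a bound. With 1 library per treatment no test was made, and a gene was called past a log2 ratio of 1 or -1.

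The named genes were the 12 highest and 12 lowest ratios among genes with at least 50 UMIs, a UMI in at least 5% of the keratinocytes of the higher library, and a sign that was shared by cells called male and cells called female, and by cells on either side of the suprabasal boundary. Leading genes and members of the lists with at least 50 UMIs could also be named, and clusters are named by genes chosen after their values were seen. Cells were called female by *Xist* without Y-linked UMIs and male by Y-linked UMIs without *Xist*. Clustering used 2000 variable genes without X- and Y-linked genes, 20 principal components, 15 neighbours and Leiden at a resolution of 0.5 or 1 (seed 42), and thinning drew 2000 UMIs per cell. Symbols not found were left out, and some genes are not reported here. The code was checked on simulated data. Tools were Python 3.11.15, numpy 2.4.6, scipy 1.17.1, pandas 2.3.3, scanpy 1.11.5, igraph 0.11.9 and matplotlib 3.10.9.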

Additional observations from a re-analysis of the deposited data

Results flagged for a closer look

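Several lists had ratios of opposite sign in keratinocytes called female and in those called male, and the difference between the sexes was not tested. The female-called comparison held 22 BSA and 16 FGF8 cells and the male-called comparison 10 and 63. These cells were spread unequally over the clusters. The *Lor*-led cluster held 0 BSA and 3 FGF8 cells called female, and 2 and 2 called male. Of the 22 female-called BSA cells, 17 lay in the *Sparc*-led cluster 1. The part of these few cells in the opposite signs was not tested. Median log2 ratios, FGF8 over BSA, were 1.20 for cells called female and -2.57 for cells called male in spinous genes, and 0.64 and -4.93 for granular and cornified genes. Desmosome and plaque genes gave 0.67 and -1.95, immediate early genes 0.16 and -1.24, and epidermal transcription factors 0.70 and -0.36. The sign was the other way for FGF feedback genes (-0.0034 and 0.55), re-epithelialisation genes (-0.35 and 0.45), S phase genes (-0.28 and 0.99) and interferon response genes (-1.49 and 1.26).

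Among barcodes outside the filters on genes and mitochondrial UMIs, 10 of 451 in the BSA library and 11 of 534 in the FGF8 library met the gene rule of the keratinocytes, above the 3 that a count of 0 allows. They entered no comparison.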

How the results depend on the processing

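No paired analysis was possible because each treatment had 1 library, and for the same reason no replicate could be left out. Of the values that the alternatives gave for the main results, 102 stayed within the range set for them, 49 moved and 4 changed sign; the cause was not tested. The keratinocyte share (2.40% BSA, 1.68% FGF8) was 1.35% and 1.12% with at least 6 epithelial genes, and 0.892% and 0.253% without cells holding a UMI of 7 marker genes of other cell types. The FGF8 share was 2.70% with *Pdgfra* cells kept and 1.27% without the 2 clusters led by genes of other cell types, an alternative chosen after seeing the data. The suprabasal share was 32.3% in BSA and 40.3% in FGF8 cells with *Pdgfra* cells kept, 31.0% and 58.8% without the 7 genes, and 31.8% and 18.8% in female-called cells. The proliferation share was 11.1% in BSA and 44.3% in FGF8 cells called male, 27.3% and 56.3% in those called female, 35% and 21.4% without the 7 genes (the opposite order), 33.3% and 56.6% unthinned, and 64.1% and 83.2% when 5 or more G2/M genes were required unthinned.

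The 652 genes above 1 became 91 without the 7 genes, 157 in cells called female and 1254 in cells called male, 263 above the suprabasal boundary, 75 after thinning, 1371 with equal weight per cell, and 1288 and 320 with minimums of 20 and 100 UMIs. The 328 genes below -1 became 50 without the 7 genes, 198 without the 5% deepest cells, 165 below the boundary, 28 after thinning, and 551 and 194 with minimums of 20 and 100 UMIs. The main and equal-weight counts are of the same 7031 genes (9.27% and 19.5% above 1). The other settings differ in cells, UMIs or minimum, and the number of genes behind their counts is not given. A lower count there does not by itself show a smaller share of genes.

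With stricter limits on detected genes and mitochondrial UMIs (under 10%), medians were 0.23 for spinous genes, 0.026 for stress keratins, 0.33 for antimicrobial genes and 0.47 for G2/M genes. Without the 7 genes they were 1.41 (spinous), 1.39 (granular), 2.35 (antimicrobial), 3.44 (FGF feedback) and 0.037 (G2/M). These 5 medians rest on 29 BSA and 17 FGF8 cells. Neither the number of genes behind them nor the median of all genes in these cells is given, so they have no background here. Without the 5% deepest cells they were -0.53 (granular), 0.028 (antimicrobial) and 0.87 (G2/M). In female-called cells they were 1.20 (spinous), 0.64 (granular), 0.39 (stress keratins) and -0.0034 (FGF feedback), and in male-called cells -2.28 (stress keratins) and 1.94 (G2/M). Below the boundary they were -1.43 (granular), -2.58 (stress keratins), 0.50 (antimicrobial) and 0.75 (G2/M), and above it 2.29 (G2/M). After thinning they were -1.28 (granular), 1.32 (antimicrobial) and 0.30 (G2/M), and with equal weight -1.39, 0.50 and 0.54. The G2/M median was 1.83 with at least 6 epithelial genes and 0.92 with *Pdgfra* cells kept. Without the cell with the most *Flg* UMIs, also chosen after seeing the data, the granular median was -1.53.

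Without the 2 clusters the log2 ratio was -1.40 for *Col2a1* and -0.89 for *Col9a3*. *S100a9* was at -0.41 without the 7 genes, *Gsdma* at 0.014 after thinning and *Mustn1* at 1.57 with at least 6 epithelial genes. The 4 clusters became 9 at a resolution of 1. Centring on the median gene and leaving hemoglobin UMIs out of the totals moved none of the 24 named genes beyond its range.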
